A study of Mus musculus with 4 samples.

Results

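The cell adhesion genes described here are the desmosomal cadherins Dsc3, Dsc2, Dsg3 and Dsg2 and the classical cadherins Cdh3 and Cdh1, seen through 2 lists of ChIP-seq peaks on the mm9 mouse genome. Their regions were chosen by position. A peak belonged to them when its midpoint lay in chromosome 18:20050001-20850000, the desmosomal cadherin cluster, or in chromosome 8:108980001-109250000, which holds Cdh3 and Cdh1. These windows held 8 of the 4130 p63 peaks and 169 of the 183757 H3K27ac peaks, or 177 of 187887 peaks in all. The cells were primary epithelial progenitors of the salivary gland, taken from wild-type adult mice 12 weeks old. Chromatin was precipitated with the 4A4 monoclonal antibody to the transcription factor p63, or with an antibody to H3K27ac, the acetylated form of histone H3 lysine 27 found at active promoters and enhancers. Each of these 2 libraries was paired with an input made without antibody, so the 4 libraries form 4 groups of 1. Whether the cells of the 2 precipitations came from the same culture or animals is not given in the sources used here.

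Cadherins are calcium-dependent adhesion proteins that join neighbouring cells. Desmocollins (Dsc) and desmogleins (Dsg) pair across the gap between cells in desmosomes, which anchor keratin filaments, whereas classical cadherins sit in adherens junctions and are linked to actin through catenins. Dsg2 and Dsc2 are found in simple epithelia and in heart muscle as well as in stratified epithelia. Dsg3 and Dsc3 are enriched in the basal layers of stratified epithelia, and Dsg3 is the main target of autoantibodies in pemphigus vulgaris. Cdh1 encodes E-cadherin, the general cadherin of epithelia, and Cdh3 encodes P-cadherin, found mainly in basal cells. p63, a relative of p53, is the characteristic transcription factor of basal epithelial cells.

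In the RefSeq gene table, used here for names and order only because it is on another build (GRCm38.p6), the 9 protein-coding genes from Dsc3 to Dsg2 are all desmosomal cadherins. Their order is Dsc3, Dsc2, Dsc1, Dsg1c, Dsg1a, Dsg1b, Dsg4, Dsg3 and Dsg2, followed by Ttr. Dsc3 and Dsc2 thus lie at the left end and Dsg3 and Dsg2 at the right end, as in the mm9 window. The genes in between belong mostly to differentiated layers: Dsc1 and the Dsg1 genes are suprabasal cadherins of the epidermis, and Dsg4 is a cadherin of the hair follicle. Cdh3 and Cdh1 are direct neighbours, with Zfp90 before and Tango6 after them. No mm9 annotation was used, so no peak is assigned to a promoter, exon or intron, and a peak is tied to a gene only by the window or end that holds it.

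Each list came from 1 ChIP library and 1 input, with no read numbers, so the depth is unknown and there are no replicates. No difference below was tested against variation between cultures. Rates and ratios carry exact Poisson 95% intervals and shares carry exact binomial (Clopper-Pearson) ones. These cover counting error only, and they are too narrow where neighbouring peaks belong to 1 acetylated stretch. Where no H3K27ac peak was called, acetylation below the detection limit of the library is possible.

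The 2 ends of the desmosomal cluster carried more H3K27ac than its middle, but the middle was not bare. The left end, the first 200 kb with Dsc3 and Dsc2, held 25 H3K27ac peaks that covered 7604 bases, or 3.80% of its bases. The right end, the last 200 kb with Dsg3 and Dsg2, also held 25 peaks, which covered 8.93 kb or 4.46%. The 400 kb between them held 33 peaks over 8.70 kb, or 2.18%. Peak density was therefore 125 per Mb (95% interval 80.9 to 185) at either end and 82.5 per Mb (56.8 to 116) in the middle. The density of both ends together was 1.52 times that of the middle, with an interval of 0.957 to 2.43 that includes equality. With peaks at most 1000 bases apart joined, that ratio was 1.33 (95% interval 0.761 to 2.37). In covered bases the ends stood at 1.90 times the middle. The left end had 1.75 times and the right end 2.05 times the cover of the middle, so by cover the excess was present on both sides. These cover ratios have no interval. In peak density each end alone had 1.52 times the middle, with a 95% interval of 0.864 to 2.63 that includes equality.

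The peaks at the ends were also wider, mainly at the right end. Median width was 214 bases at the left end, 262 at the right end and 196 in the middle. The share of peaks of 200 bases or more was 52.0% at the left end (13 of 25), 80.0% at the right end (20 of 25) and 39.4% in the middle (13 of 33), against 45.3% over the whole list. Counting only these peaks, ends over middle came to 2.54 (95% interval 1.3 to 5.26). The 2 of 83 peaks of the desmosomal window that reached 1000 bases stood at opposite ends, and the middle had none. Over the whole list, 1.91% of H3K27ac peaks were that wide, so finding none among the 33 of the middle shows no difference.

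**Figure D1:**
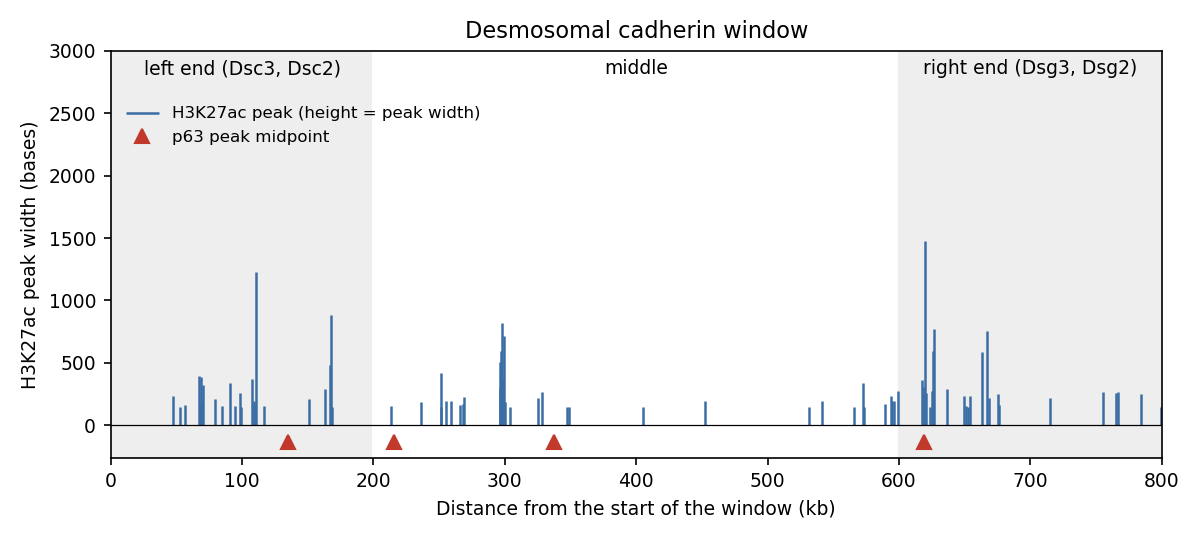
H3K27ac and p63 peaks along the 800 kb desmosomal cadherin window, by distance from its start in kb; each blue line is 1 of 83 H3K27ac peaks, its height the peak's width in bases, and red triangles are the 4 p63 midpoints. The widest peaks, 1231 and 1479 bases, stand in the shaded left and right ends, and the centre of the window holds a long stretch with few peaks.

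At the Dsc3 and Dsc2 end the acetylated peaks lay in several short groups. The widest peak there was chromosome 18:20159627-20160857 (1231 bases), which closed a group of 4 peaks spanning 3.16 kb when peaks at most 1000 bases apart were joined. A peak of 880 bases at 20217183-20218062 lay in a group of 3 that spanned 2.54 kb. Another group, of 6 narrower peaks, spanned 3.27 kb from 20117299 to 20120564. None of these 3 groups held a p63 peak, and their nearest p63 peaks were 24.3, 30.9 and 64.6 kb away.

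At the Dsg3 and Dsg2 end, acetylation and p63 coincided. The widest H3K27ac peak of the window, chromosome 18:20668704-20670182 (1479 bases), lay in a group of 5 peaks that spanned 3.49 kb, and it contained a whole p63 peak, 20669232-20669427 (196 bases). Within 10 kb of that p63 midpoint there were 9 H3K27ac peaks, which covered 22.3% of the bases. A second group began at 20675302, had 3 peaks over 1.77 kb with the widest at 769 bases, and lay 5.87 kb from the same p63 peak.

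By gene order the suprabasal and hair cadherin genes lie between Dsc2 and Dsg3. Without an mm9 annotation they were not placed relative to the cuts between ends and middle. The middle of the cluster was uneven. Its longest joined domain, chromosome 18:20345809-20350445, had 7 peaks over 4.64 kb and was also the longest of the desmosomal window. It was 75.3% covered and had no p63 peak within 36.5 kb. Of the 24666 joined domains of 2 or more peaks in the list, 3.82% were at least as long. Without this domain the ends had 3.17 times the cover of the middle and 1.92 times its peak density (95% interval 1.17 to 3.22), a calculation chosen after the domain was seen. The ends kept their own longest domains, so both ratios rise by construction. That the interval then leaves out equality is therefore no evidence of a difference.

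To the right of this domain lay the emptiest part of the cluster. The longest stretch without an H3K27ac peak, chromosome 18:20502164-20581778, measured 79.6 kb. The next longest, of 55.9 and 46.7 kb, preceded it directly. Together they formed a run of 183 kb, 45.6% of the middle, with 2 H3K27ac peaks of 150 and 194 bases and no p63 peak. Before the run, the middle carried 21 H3K27ac peaks in 149.186 kb (141 per Mb, 95% interval 87.1 to 215), and after it 10 peaks in 68.222 kb (147 per Mb, 70.3 to 270). The peak density of the rest of the middle was within the intervals of the ends. Leaving out a run picked for its lack of peaks raises the density of the rest by construction. The ends kept their own empty stretches, such as the first 47.4 kb of the left end, so the comparison is uneven. Cover was 4.22% before the run and 3.02% after it, against 3.80% and 4.46% at the ends. The limits of the run were set after its peaks were seen.

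The 4 p63 peaks of the desmosomal window included 1 that overlapped H3K27ac (25%, 95% interval 0.631 to 80.6%), near the 34.8% of all p63 peaks. The share with at most 1000 bases to an H3K27ac peak was also 1 of 4, against 68.4% of all p63 peaks. The interval includes both values. The 4 peaks were spread as 1 at the left end, 2 in the middle and 1 at the right end, which is 5.0 per Mb in each segment. The ratio of ends to middle was 1.0 (95% interval 0.0725 to 13.8). Such small numbers cannot show a difference between the segments. The left p63 peak, chromosome 18:20185191-20185413 (223 bases), lay between the acetylated groups of the Dsc3 and Dsc2 end. Its nearest H3K27ac peaks were 18.2 kb to the left and 15.8 kb to the right. The p63 peak at 20265177-20265419 (243 bases) was 1.84 kb from a lone H3K27ac peak of 158 bases and 21.0 kb from the next one on the other side. The p63 peak at 20386980-20387174 (195 bases) had H3K27ac peaks 8.73 and 9.93 kb away. Within 10 kb of these 3 midpoints there were 0, 1 and 1 H3K27ac peaks. The p63 peak of the Dsg3 and Dsg2 end was therefore the single overlapping site of the window.

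The Cdh3 and Cdh1 window was far more densely acetylated. It held 86 H3K27ac peaks in 270 kb, or 319 per Mb (95% interval 255 to 393), and they covered 40.2 kb or 14.9% of its bases. Of these 86 peaks 9 reached 1000 bases, against 1.91% of the whole list, and 59 (68.6%) reached 200 bases, against 45.3%. The median width was 270.5 bases, against 223 in the desmosomal window and 191 over the whole list. Neighbouring peaks were close: 59 of 85 gaps (69.4%) were under 1000 bases and the median gap was 419 bases, whereas in the desmosomal window 27 of 82 gaps (32.9%) were that short and the median was 2964.5 bases.

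**Figure D2:**
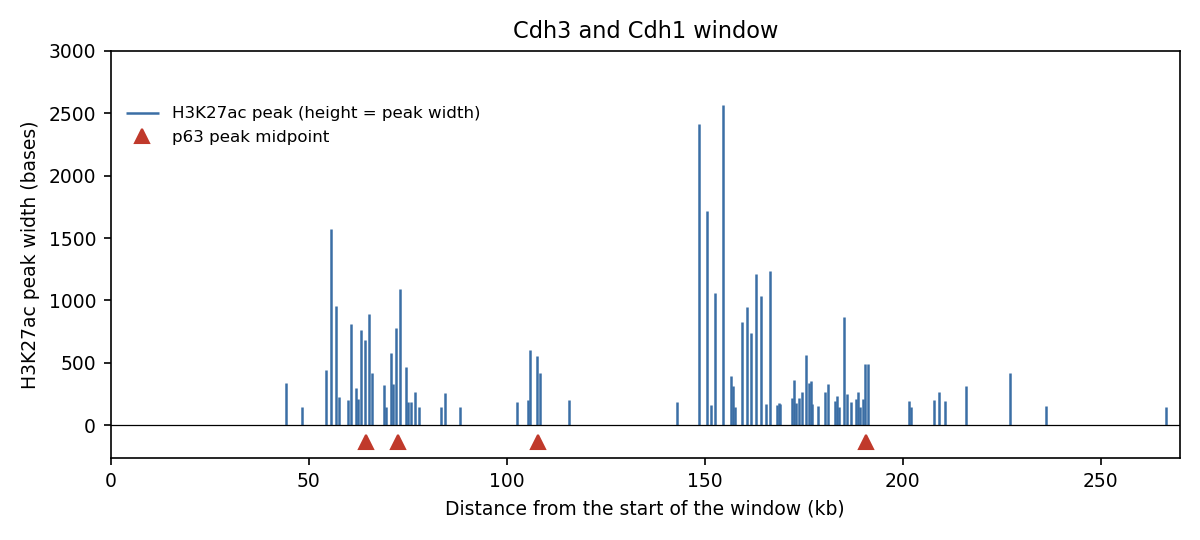
H3K27ac and p63 peaks along the 270 kb window of Cdh3 and Cdh1, by distance from its start in kb; each blue line is 1 of 86 H3K27ac peaks, its height the width in bases on the same scale as for the desmosomal window, and red triangles are the 4 p63 midpoints. The 3 widest peaks, 2566, 2417 and 1715 bases, stand close together at about 150 kb, away from the p63 midpoints.

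Acetylation in this window is described here as 2 blocks, on either side of a stretch of 27.2 kb without H3K27ac at chromosome 8:109095759-109122983. The longest stretch of the window without H3K27ac, 109216285-109246512 (30.2 kb), lay near its right edge and held no p63 peak. The block on the right, the Cdh1 side if the RefSeq order holds, had the longest domain and the widest peaks. It included the longest joined domain of the window, 109127257-109137653, where 8 peaks spanned 10.4 kb and covered 84.5% of it. Only 0.474% of the joined domains in the list were at least as long. The domain held the peaks of 2566 bases (109133471-109136036), 2417 bases (109127257-109129673) and 1715 bases (109129785-109131499), and 222, 273 and 846 peaks of the list were at least as wide as each. The next domain, 109139136-109147200, had 7 peaks over 8.06 kb and included a peak of 1239 bases. Neither domain held a p63 peak, and the nearest p63 peaks were 33.0 and 23.5 kb away.

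The block on the left, the Cdh3 side by the same order, held 3 of the 4 p63 peaks. Its widest peak, 109034798-109036372 (1575 bases), lay in a domain of 4 peaks over 3.67 kb without p63. A domain of 8 peaks over 6.43 kb from 109039874 held 1 p63 peak, and one of 11 peaks over 9.04 kb from 109048826, the second longest of the window, held another. The remaining p63 peak of this block lay in a short domain of 2 peaks over 1.17 kb. A stretch of 14.3 kb without H3K27ac, 109068236-109082497, separated it from the others, so its place in this block depends on the divider chosen. Of the 3 longest domains of the window, then, the one of 9.04 kb held a p63 peak, and those of 10.4 and 8.06 kb did not.

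All 4 p63 peaks of the Cdh3 and Cdh1 window overlapped H3K27ac, each at the edge of a peak. In the whole p63 list, 34.8% shared at least 1 base with H3K27ac, and 68.4% had at most 1000 bases between them and an H3K27ac peak. The share of 4 of 4 has a 95% interval of 39.8 to 100%, which lies above the first value and includes the second. The peak 109044418-109044770 (353 bases), the widest p63 peak of either window, shared 137 bases with an H3K27ac peak of 680 bases on its left and 54 with one of 888 bases on its right, across a gap of 162 bases. The peak 109052492-109052687 (196 bases), 8.0 kb further, shared 11 bases with a peak of 779 and 36 with a peak of 1091 bases, across a gap of 149 bases. Both thus bridged 2 H3K27ac peaks, which 3.12% of all p63 peaks did.

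The other 2 sites also met a short gap between H3K27ac peaks, but the midpoint of the second lay inside an H3K27ac peak. The peak 109087855-109088083 (229 bases) shared 59 bases with a peak of 559 bases on its left and stopped 18 bases short of a peak of 421 bases on its right, in a gap of 188 bases. The peak 109170696-109170916 (221 bases), in the right block, shared 143 bases with a peak of 493 bases and stopped 1 base short of a peak of 495 bases, next to a gap of 79 bases. In 3 of the 4 sites the p63 midpoint itself lay in a gap under 200 bases between H3K27ac peaks, against 4.19% of all p63 peaks. H3K27ac covered 100% of the bases from 200 to 400 on both sides of all 4 midpoints, but 11.0%, 0%, 0% and 83.0% of the central 100 bases. Among all p63 peaks, 8.47% had such full flanks, and 4.87% had full flanks with less cover in the centre. At the Dsg3 and Dsg2 end, by contrast, H3K27ac covered both flanks and centre of the p63 site completely. These features were compared after the sites had been seen. The shares of all p63 peaks, also the 3.12% above, are taken over the whole genome. This window had 14.9% cover, against 1.09% in the median tile of its length, and a median gap of 419 bases. Short gaps and acetylated flanks can thus be common anywhere in it. Whether the p63 sites differ from other positions of the window was not tested.

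**Figure D3:**
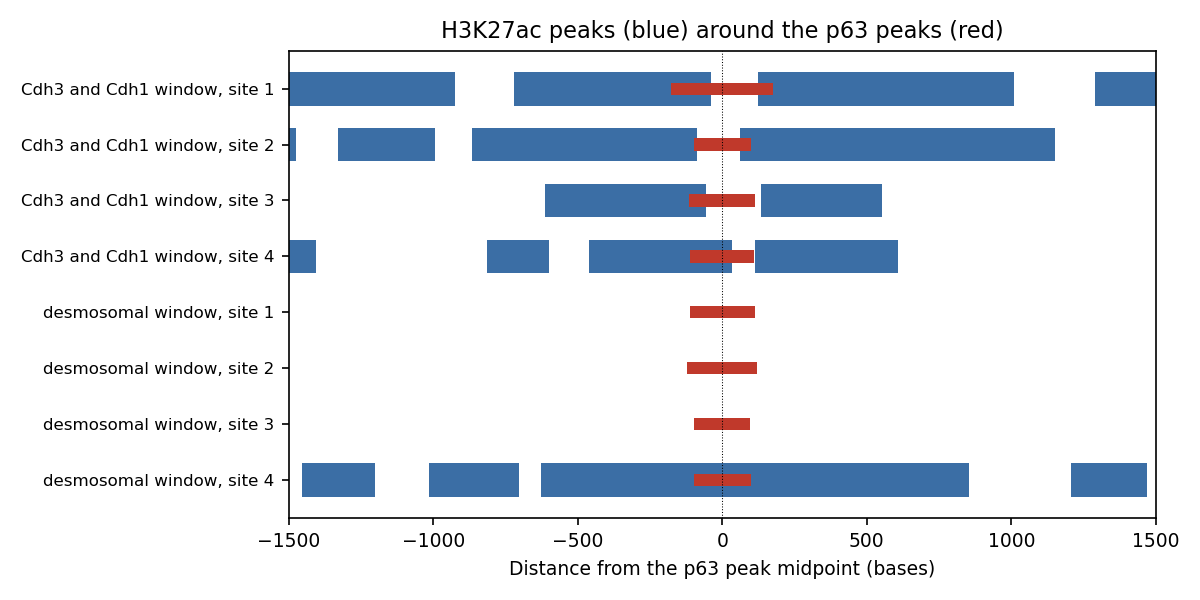
H3K27ac peaks (blue bars) and p63 peaks (red bars) within 1500 bases of each of the 8 p63 midpoints, 1 line per site numbered by position in its window; the horizontal axis is distance from the midpoint in bases. The 4 sites of the Cdh3 and Cdh1 window each meet a short gap between H3K27ac peaks, 3 desmosomal sites have no H3K27ac in view, and the desmosomal site numbered 4 lies inside a peak of 1479 bases.

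Set side by side, the window of the classical cadherins had 3.07 times the H3K27ac peak density of the desmosomal window (95% interval 2.24 to 4.20) and 4.72 times its covered share. The value of 3.07 depended on the unit counted: with peaks at most 1000 bases apart joined, there were 27 stretches in the Cdh3 and Cdh1 window and 56 in the desmosomal one, a density ratio of 1.43 (interval 0.868 to 2.30). Per acetylated stretch the Cdh3 and Cdh1 window had more peaks, and in stretches per Mb the interval includes equality. p63 density was 14.8 per Mb (interval 4.04 to 37.9) against 5.0 per Mb (1.36 to 12.8), a ratio of 2.96 with an interval of 0.552 to 15.9, so these 8 sites show no difference beyond counting error. Overlap with H3K27ac was 4 of 4 against 1 of 4 p63 peaks (95% interval of the latter 0.631 to 80.6%), and these intervals overlap too. Over both windows 5 of 8 p63 peaks (62.5%, 24.5 to 91.5%) overlapped H3K27ac, against 34.8% of the p63 list, a share that lies inside this interval. By the stricter count of p63 midpoints inside an H3K27ac peak it was 2 of 8 (25%), against 18.8% of the list. That count was 1 of 4 in each window, so the windows did not differ by it. The 8 p63 peaks had a median width of 222 bases, against 181 for the whole p63 list (quartiles 145 and 221).

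**Figure D4:**
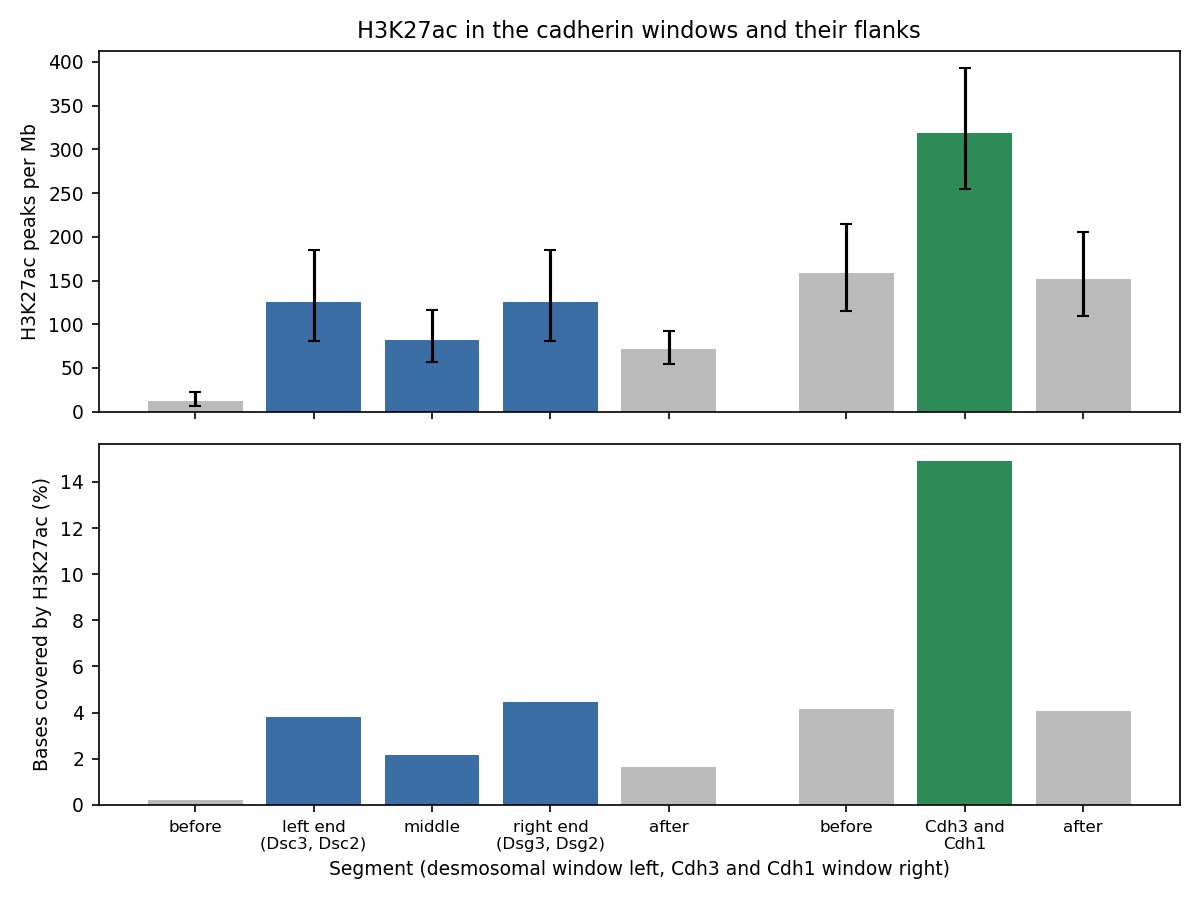
H3K27ac peaks per Mb with exact Poisson 95% intervals (top) and percent of bases covered by H3K27ac (bottom) for the ends and middle of the desmosomal window, the Cdh3 and Cdh1 window, and the stretches of the same length as each window directly before and after it (grey). The Cdh3 and Cdh1 window reaches 319 per Mb and 14.9%, and the ends of the desmosomal window both reach 125 per Mb.

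Both windows had more H3K27ac than the stretches beside them, although the interval of the desmosomal window overlaps that of the stretch after it. The 800 kb before the desmosomal window held 10 H3K27ac peaks (12.5 per Mb, 95% interval 5.99 to 23.0) and no p63 peak, and the 800 kb after it held 57 (71.2 per Mb, 54.0 to 92.3) with 2 p63 peaks. The cluster itself had 104 per Mb (82.6 to 129) and a cover of 3.15%, against 0.223% before and 1.65% after. The stretch on the Dsc3 side thus held less H3K27ac than the one on the Dsg2 side. Such averages do not show how sharp either border is. Around Cdh3 and Cdh1 the flanks of 270 kb had densities within each other's intervals, with 159 H3K27ac peaks per Mb before (115 to 215) and 152 after (109 to 206). Their cover was 4.16% and 4.08%, and they held 0 and 1 p63 peaks, against 4 inside the window.

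The genome was then cut into tiles of the same lengths to place the windows among all others. Of 3199 tiles of 800 kb, 24.7% held at least the 83 H3K27ac peaks of the desmosomal window, 18.2% had at least its cover and 10.3% at least its 4 p63 peaks. The median tile had 48 H3K27ac peaks, 1 p63 peak and a cover of 1.35%. Of 9499 tiles of 270 kb, 0.505% held at least the 86 H3K27ac peaks of the Cdh3 and Cdh1 window, 0.179% (17 tiles) had at least its cover and 1.27% at least its 4 p63 peaks. The median tile of that length had 14 H3K27ac peaks and a cover of 1.09%. The desmosomal window was therefore in the upper range of tiles, and the Cdh3 and Cdh1 window near the top. Both windows were placed around named genes and the tiles were not, so these shares are a description and no test.

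**Figure D5:**
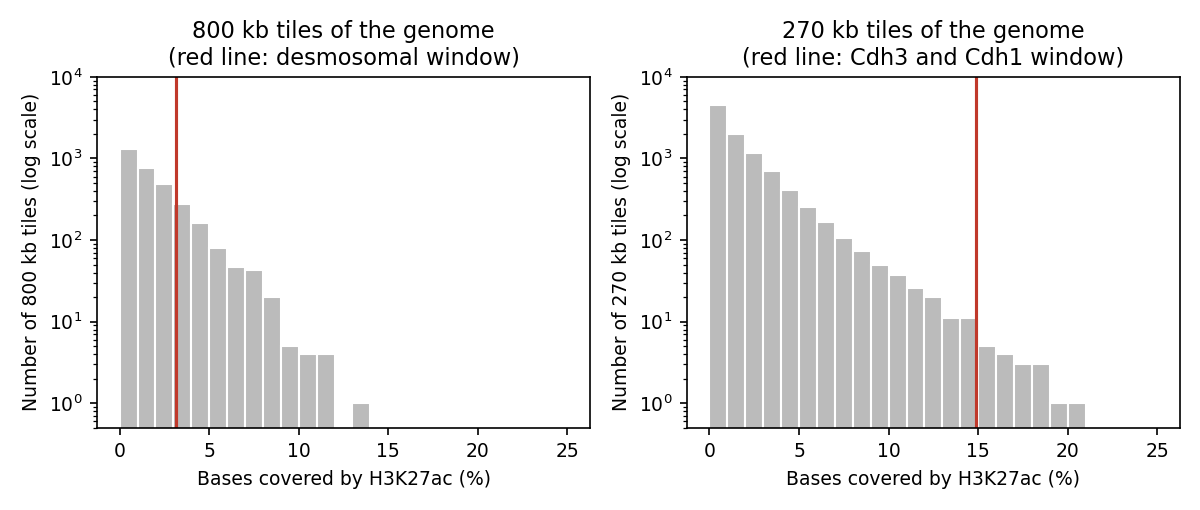
Number of genome tiles, on a log scale, by percent of bases covered by H3K27ac, for 3199 tiles of 800 kb (left) and 9499 tiles of 270 kb (right); the red lines mark the desmosomal window at 3.15% and the Cdh3 and Cdh1 window at 14.9%. The right line stands in the far tail, with 17 tiles at or above it, and the left line stands in the body of its distribution.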

How the data were processed

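The deposited files are 2 peak lists that hold the chromosome, start and end of each peak and no other measure (no score, height or p-value). Reads were handled with Bowtie 1.1.1 and MACS2 2.1.0 on build mm9, per the submitters' processing notes. No source used here gives the peak threshold or the treatment of duplicates, and a looser threshold lengthens a list and widens its peaks. Starts are printed counted from 1. The windows, their genes and the lists were chosen with earlier results of these data known. Peaks were assigned by midpoint, overlap needed 1 shared base, cover was clipped to the segment, and tiles covered each chromosome between its outermost peaks. The peaks named are every p63 peak of both windows, the 5 widest H3K27ac peaks, the 3 longest joined domains and the longest gap of each window, and further ones picked after seeing their values. Overlap, distance, joining and interval code was tested on simulated data. Of 11 gene symbols, 11 matched the RefSeq table. Tools were scipy 1.17.1, pandas 2.3.3, matplotlib 3.10.9 and numpy 2.4.6 under Python 3.11.15. Alternatives covered the cut into ends and middle, window edges, narrow peaks, joining and the definition of overlap.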

Additional observations from a re-analysis of the deposited data

How the results depend on the processing

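Of 18 alternatives for 7 results, 15 left the value within its 95% interval or, for covered bases, within 1.5 times, and none reversed a ratio. The other 3 moved: ends over middle in peak density of the desmosomal window went from 1.52 to 2.54 with peaks of 200 bases or more, ends over middle in covered bases went from 1.90 to 3.17 without the longest domain of the middle, and the peak density of the Cdh3 and Cdh1 window over the desmosomal one went from 3.07 to 1.43 with joined peaks. Cut into 3 equal parts, the desmosomal ends had 1.94 times the peak density of the middle (95% interval 1.13 to 3.53), so the interval then leaves out equality. With joined peaks this density ratio was 1.33 (95% interval 0.761 to 2.37), and the interval includes equality. Counting only p63 midpoints inside an H3K27ac peak, the share over both windows was 25% (2 of 8) in place of 62.5%. Leaving out the longest domain was added after seeing the data, as was the comparison of covered bases between windows (4.72, and 5.54 with peaks of 200 bases or more). Leaving out a domain of the middle alone raises ends over middle by construction. No paired analysis was possible because there is 1 ChIP library per list. With unknown depth, 4 p63 peaks per window cannot resolve differences in p63 density.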

Other observations

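The H3K27ac list is not in genome order as a whole, but 85.8% of neighbouring rows lie on the same chromosome and 93.0% of these are in order of position. It thus consists largely of runs sorted by position, and within such a run a row number reflects position. No source used here gives the basis of the order of the runs, so row numbers are a description only. The peak of 2417 bases at the start of the longest domain of the Cdh3 and Cdh1 window, chromosome 8:109127257-109129673, stood at row 101 of 183757. The peak of 1575 bases in the left block stood at row 3181. In the desmosomal window, the earliest rows were the peak that holds the p63 site of the Dsg3 and Dsg2 end (row 2539) and the peak of 880 bases of the Dsc3 and Dsc2 end (row 2859). The first 18375 rows, 10% of the list, held 22 of the 86 peaks of the Cdh3 and Cdh1 window (25.6%) and 12 of the 83 peaks of the desmosomal window (14.5%). The widest peak of the Cdh3 and Cdh1 window, 2566 bases, stood at row 10419, and a peak of 821 bases in the middle of the desmosomal window at row 139061. A peak of 420 bases near the right edge of the Cdh3 and Cdh1 window, 109206992-109207411, stood at row 3468 and lay apart from both domains of wide peaks.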
